A study of Mus musculus with 3 samples.

Results

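Primitive endoderm genes, the transcription factors and cell surface markers of the first extraembryonic layer to leave the inner cell mass, were followed in mouse ES cells with and without Pcgf1. The set held 9 genes, chosen by name: the transcription factors Gata4, Gata6, Sox7, Sox17, Foxa2 and Hnf4a, the endocytic adaptor Dab2, the growth factor receptor Pdgfra and the endocytic receptor Cubn. Of these, 8 were listed under their own name among the 25350 genes measured in all 3 samples, and Pdgfra was listed only under a name joined with the microRNA gene Mir7025 and is given apart. Expression is given as FPKM, fragments per kilobase of transcript scaled to the mapped fragments of a library, a level per length that allows genes to be set side by side. The value of a gene is the larger of its sums over first-exon entries and over last-exon entries.

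In the blastocyst, fibroblast growth factor signalling drives part of the inner cell mass to switch on Gata6, followed by Pdgfra, Sox17, Gata4 and Sox7, while the remaining cells keep Nanog and form the epiblast. The new layer then gives the parietal endoderm, which lays down a thick basement membrane, and the visceral endoderm, which takes up maternal proteins through cubilin and its partners and secretes plasma proteins under Hnf4a and Foxa2. ES cells correspond to the epiblast and normally hold these genes at low levels, although forced Gata4 or Gata6 turns them into endoderm. Pcgf1 is a subunit of a variant Polycomb repressive complex 1, which ubiquitylates histone H2A at CpG islands, and many developmental regulators are bound by Polycomb proteins in ES cells.

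The study asked how loss of Pcgf1 changes gene expression in ES cells and sequenced poly(A)-selected RNA from 3 cultures, 1 library per group. WT cells were wild-type C57BL/6 ES cells, and Pcgf1KO cells, called Pcgf1-/- here, were made from ES cells with Cas9 and a pair of guides placed in exons 2 and 3 of Pcgf1, from puromycin-selected cells. The rescued cells, labelled Pcgf1KO+Pcgf1_flag and called Pcgf1-/-+Pcgf1 or rescued cells here, were the knockout cells infected with a lentivirus carrying FLAG-tagged Pcgf1. All were grown without differentiation on mitomycin C-inactivated mouse embryonic fibroblasts in fetal calf serum and leukemia inhibitory factor, so fibroblast RNA can be part of each library. There were no replicates, so no difference between groups could be tested and no spread between cultures is known. Pcgf1 itself was listed at 13.95 FPKM in WT, 5.88 in Pcgf1-/- and 7.86 in rescued cells, and all of the Pcgf1-/- value belonged to a form that joins exon 1 to exon 4, which neither other sample listed.

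The depth of the libraries was not given. The worth of 1 fragment was estimated from single-transcript genes longer than 2000 bases. It was taken as the median of their FPKM times kilobases, among values above 0 and under 0.075, the same window for every sample. By this estimate 1 fragment was worth 0.0517 FPKM over 1 kilobase for WT, 0.0488 for Pcgf1-/- and 0.0498 for rescued cells. The samples were thus of nearly equal depth if the window holds the values of single fragments. The fragments behind each value below are estimates from these medians and the longest coding transcript, and the exact 95% counting intervals given with them cover counting error only. The same transcript length was used in every sample. Where the listed form of a gene differed between samples, as for Gata4 and Cubn, the fragments and intervals do not allow for it. Positions are on mm10 (GRCm38). A value of 0 may be a failed estimate, since Spcs1, a signal peptidase subunit, was listed at 79.0 FPKM in WT and at 0 in both other samples. A listed 0 is therefore named as such and no fold against it is printed. For the members, the main counts and medians that hold such genes through the pseudocount are also given without them. For the wider lists this is done for the counts over all lists only. The ES cell character was plain in every sample: the 7 measured genes of the ES cell list summed to 1989 FPKM in WT, 1977 in Pcgf1-/- and 1796 in rescued cells, with Pou5f1, the central pluripotency factor, at 670, 518 and 626 FPKM.

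The endoderm genes were low in all 3 samples. Their 8 levels summed to 2.27 FPKM in WT, 2.74 in Pcgf1-/- and 3.15 in rescued cells, whereas the median gene above 0 stood at 5.04, 5.13 and 4.33 FPKM. Only Dab2 reached 1 FPKM, and it did so in WT and in Pcgf1-/-+Pcgf1 cells. Even Dab2, the highest member, stood above only 31.2% of the genes above 0 in WT cells, 27.7% in Pcgf1-/- cells and 33.5% in rescued cells.

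**Figure D1:**
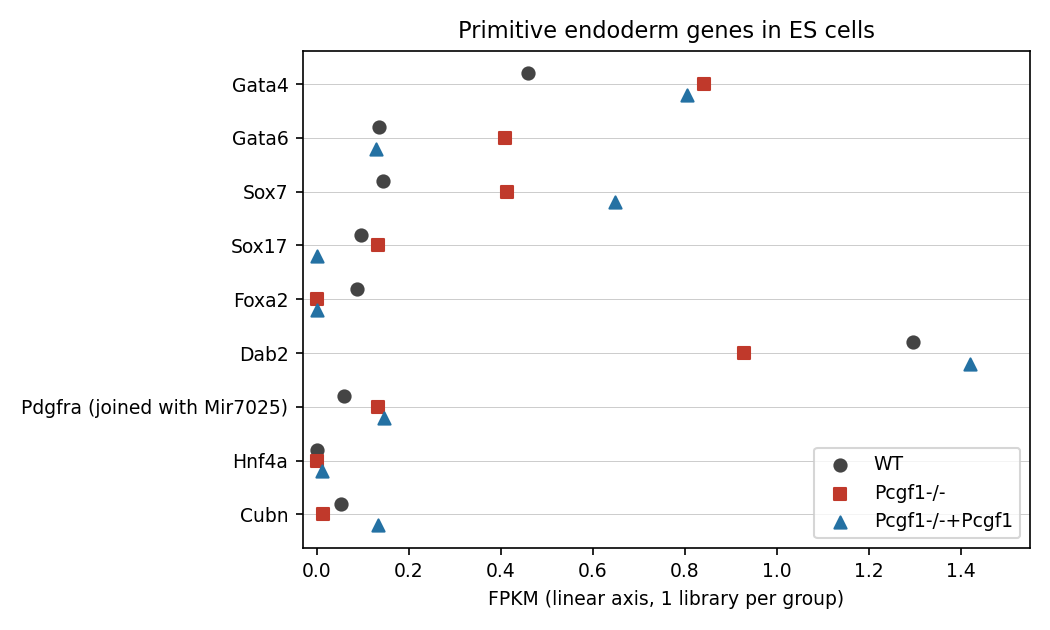
FPKM (linear axis) of the 9 primitive endoderm genes, with 1 point per library: circles are WT, squares Pcgf1-/- and triangles Pcgf1-/-+Pcgf1 cells. Dab2 was the highest gene in every sample, Gata6 stood apart in Pcgf1-/- cells at 0.410 FPKM, and Gata4 and Sox7 were above WT in both other samples.

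Gata6 encodes the zinc finger factor at the head of the primitive endoderm programme (ENSMUSG00000005836, chromosome 18, 11052064 to 11085635, plus strand). It was listed at 0.136 FPKM in WT, 0.410 in Pcgf1-/- and 0.129 in rescued cells, on about 9, 27 and 8 fragments. The counting interval of the level was 0.0658 to 0.273 FPKM in WT and 0.268 to 0.593 FPKM in Pcgf1-/- cells. WT and rescued cells thus sat together and Pcgf1-/- cells alone were high. On FPKM plus a pseudocount of 0.1, the scale of all log2 ratios given here, the difference was 1.11 for Pcgf1-/- against WT, -1.16 for Pcgf1-/-+Pcgf1 against Pcgf1-/- and -0.04 for Pcgf1-/-+Pcgf1 against WT. Without the pseudocount, the Pcgf1-/- level was 3.01 times that of WT, with a counting interval of 1.29 to 6.84.

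Sox7, an HMG-box factor of the SOX F group that marks parietal endoderm (ENSMUSG00000063060, chromosome 14, 63943673 to 63950732, plus strand), was listed at 0.144 FPKM in WT, 0.414 in Pcgf1-/- and 0.648 in rescued cells. About 9, 28 and 43 fragments stood behind these values. The Pcgf1-/- level was 2.88 times that of WT (counting interval 1.35 to 7.07), and the log2 ratio on the pseudocount scale was 1.08. Unlike Gata6, Sox7 was not lower with Pcgf1 put back: its log2 ratio was 0.54 for Pcgf1-/-+Pcgf1 against Pcgf1-/- and 1.62 for Pcgf1-/-+Pcgf1 against WT. The counting interval of the first of these, 0.952 to 2.62 as a ratio, included 1, and that of the second, 2.21 to 10.7, did not.

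Gata4 encodes the factor that acts beside Gata6 and maintains the layer (ENSMUSG00000021944, chromosome 14, 63198922 to 63271692, minus strand). It was listed at 0.459 FPKM in WT, 0.841 in Pcgf1-/- and 0.805 in rescued cells, on about 30, 59 and 55 fragments. Both cell populations derived from the knockout were above WT and close to each other. Without the pseudocount the Pcgf1-/- level was 1.83 times that of WT, with a counting interval of 1.18 to 2.98. The log2 ratio was 0.75 for Pcgf1-/- and 0.70 for Pcgf1-/-+Pcgf1 against WT, under the 2-fold limit, and -0.06 between the rescued and the Pcgf1-/- cells.

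The forms of Gata4 differed between samples more than its total. Of 5 first exons listed for Gata4, 3 were above 0, and each sample had another mix of them. In Pcgf1-/- cells, 100% of the 0.841 FPKM started at 63245151 to 63245248, the first exon of the annotated transcripts Gata4-201 and Gata4-202. In WT cells that exon held 0.132 FPKM, or 28.9% of the first-exon sum, and 0.326 FPKM (71.1%) started at the more downstream exon 63213365 to 63213607 of Gata4-203. In Pcgf1-/-+Pcgf1 cells the Gata4-201 exon was listed at 0, the Gata4-203 exon at 0.398 FPKM (49.5%) and the upstream exon 63271057 to 63271124 of Gata4-206 at 0.407 FPKM (50.5%). Gata4-203 lacks exon 2 of Gata4-201 (63240536 to 63241645, 1110 bases), which holds the annotated start codon of the full-length protein. With 30 to 59 fragments for the whole gene, how firmly these estimates assign a fragment to a first exon is not known from the files. The fragments and the interval of the ratio were taken over the 3400 bases of Gata4-201 in every sample. They do not allow for the different mix of forms.

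**Figure D2:**
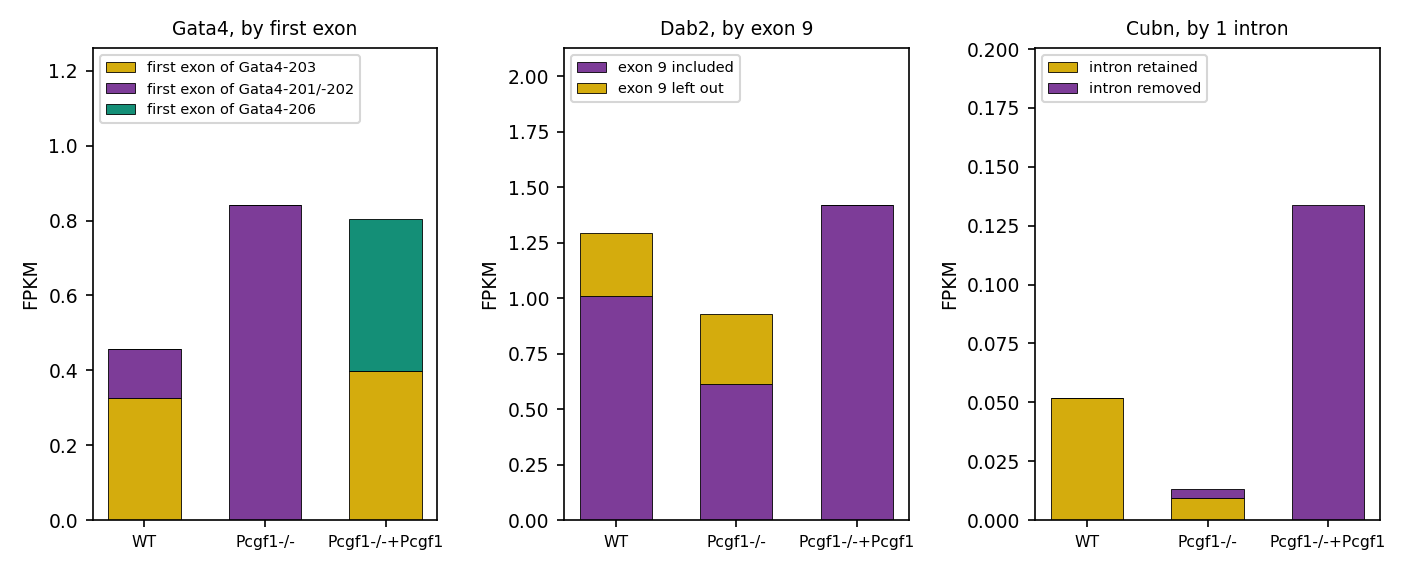
FPKM (linear axes from 0) by sample of Gata4 stacked by first exon, Dab2 stacked by inclusion of exon 9, and Cubn stacked by retention of 1 intron, with 1 library per bar. Gata4 in Pcgf1-/- cells came from 1 first exon alone, Dab2 without exon 9 was listed at 0 in Pcgf1-/-+Pcgf1 cells, and Cubn in WT cells was listed only with the intron.

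Sox17, Foxa2 and Hnf4a, the other transcription factors of the set, were at the edge of detection. Sox17 (ENSMUSG00000025902, chromosome 1, 4490931 to 4497354, minus strand) was listed at 0.0953 FPKM in WT and 0.133 in Pcgf1-/- cells, on about 6 and 9 fragments, and at 0 in Pcgf1-/-+Pcgf1 cells. Its log2 ratio for Pcgf1-/- against WT was 0.26, and the counting interval of the ratio ran from 0.450 to 4.83. Foxa2 (ENSMUSG00000037025, chromosome 2, 148042877 to 148046969, minus strand) was listed at 0.0864 FPKM in WT, on about 4 fragments, all from 1 of 3 listed first exons, and at 0 in both other samples. Hnf4a (ENSMUSG00000017950, chromosome 2, 163506808 to 163572910, plus strand) was listed at 0 in WT and Pcgf1-/- and at 0.0107 FPKM, about 1 fragment, in Pcgf1-/-+Pcgf1 cells. Among the 6 transcription factors, the 3 that were above 0 in every sample (Gata4, Gata6 and Sox7) were thus higher in Pcgf1-/- than in WT cells, and the other 3 cannot be ordered at this depth.

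Dab2, the clathrin adaptor that carries megalin and cubilin into endoderm cells (ENSMUSG00000022150, chromosome 15, 6299788 to 6440712, plus strand), was the highest member. It was listed at 1.30 FPKM in WT, 0.929 in Pcgf1-/- and 1.42 in rescued cells, on about 117, 89 and 133 fragments. Its order ran against that of Gata6, with Pcgf1-/- cells lowest. Without the pseudocount the Pcgf1-/- level was 0.717 times that of WT, with a counting interval of 0.539 to 0.954. The log2 ratio was -0.44 for Pcgf1-/- against WT, 0.56 for Pcgf1-/-+Pcgf1 against Pcgf1-/- and 0.12 for Pcgf1-/-+Pcgf1 against WT, each inside the 2-fold limit on the larger of first-exon and last-exon sums. Dab2 is also made by fibroblasts, and the sum over the 15 measured genes of the feeder fibroblast list was lowest in the same sample. These genes summed to 39.4 FPKM in WT, 21.7 in Pcgf1-/- and 34.1 in rescued cells. They did not all move together: Dcn (0.352, 0.779 and 1.18 FPKM), Twist1 (2.09, 3.19 and 0.763 FPKM) and Loxl1 (1.41, 1.80 and 2.46 FPKM) were higher in Pcgf1-/- than in WT cells. Of the 15, 5 were more than 2-fold lower and 0 higher in Pcgf1-/- against WT, beside 9.41% lower and 4.07% higher among all genes. In Pcgf1-/-+Pcgf1 against Pcgf1-/-, 5 of the 15 were higher and 1 lower, beside 11.8% and 4.11% among all genes. Their levels were led by Mmp2 (14.9, 7.12 and 9.54 FPKM) and Thy1 (14.2, 6.39 and 13.5 FPKM), with Postn and Fap at 0 throughout, and their part in the Dab2 values was not tested. In these bulk samples fewer cells of a type and less RNA per cell cannot be told apart.

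Dab2 has a distant upstream and a downstream start, and first-exon signal was listed only at the downstream one. The upstream first exon, 6299788 to 6299899, was listed at 0 in all 3 samples. The first exon 6386598 to 6386932 of Dab2-202 held 1.30 FPKM in WT and 0.616 in Pcgf1-/- cells. In Pcgf1-/-+Pcgf1 cells that exon held 0.254 FPKM and a shorter one with the same start, ending at 6386693 and listed in no other sample, held 1.17 FPKM. In Pcgf1-/- cells the last exons summed to 0.929 FPKM and the first exons to 0.616, so part of the Pcgf1-/- value had no listed first exon. By first exons alone the log2 ratio of Dab2 was -0.96 for Pcgf1-/- against WT and 1.09 for Pcgf1-/-+Pcgf1 against Pcgf1-/-, the latter past the 2-fold limit. The RefSeq promoter windows of both starts (GRCm38.p6, plus strand, 250 bases before to 50 after the RefSeq start) are printed here because the first lies at the start listed at 0 and the second overlaps the start with signal. The RefSeq start of the second, 6386748, lies 150 bases downstream of the listed start, so most of that window lies inside the transcribed region. Capitals mark the dinucleotide CG, the target of DNA methylation and the hallmark of CpG islands.
Dab2 upstream start, chr15:6299539-6299838: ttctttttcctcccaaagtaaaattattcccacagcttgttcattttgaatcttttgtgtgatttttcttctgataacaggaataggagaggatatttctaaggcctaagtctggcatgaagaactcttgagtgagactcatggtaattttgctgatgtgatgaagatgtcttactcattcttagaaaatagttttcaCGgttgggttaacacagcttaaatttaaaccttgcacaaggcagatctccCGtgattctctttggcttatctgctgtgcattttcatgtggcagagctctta
Dab2 downstream start, chr15:6386498-6386797: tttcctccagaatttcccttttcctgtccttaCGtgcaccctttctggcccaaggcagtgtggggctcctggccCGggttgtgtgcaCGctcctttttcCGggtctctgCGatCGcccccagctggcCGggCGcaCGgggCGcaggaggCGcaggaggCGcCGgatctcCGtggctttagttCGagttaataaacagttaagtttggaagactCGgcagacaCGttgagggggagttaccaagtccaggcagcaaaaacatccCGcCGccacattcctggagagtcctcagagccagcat
The upstream window held 2 CG, and 85.9% of 32851 mouse promoter windows of the same length held at least as many. The downstream window held 19 CG against a median of 7, and 28.1% of windows held at least as many. The letters GATA, searched on both strands, occurred 3 times in the upstream and 0 times in the downstream window, and 57.9% of all windows held at least 1 copy.

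Dab2 was also spliced in different ways. Exon 9 of the 15 exons of Dab2-202 (6424635 to 6424697, 63 bases or 21 codons) was included in 1.01 of 1.30 FPKM in WT (77.9%), in 0.616 of 0.929 FPKM in Pcgf1-/- (66.3%) and in all 1.42 FPKM in Pcgf1-/-+Pcgf1 cells. The next exon, exon 10 (6429296 to 6429949, 654 bases or 218 codons), which separates the long from the short Dab2 protein, was included in 100% of the signal in every sample. The long form was therefore the one listed throughout, and the samples differed in exon 9 alone among these neighbouring exons.

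Pdgfra and Cubn, the receptors of the set, were lower than Dab2 in every sample. The joined Pdgfra entry (ENSMUSG00000029231, chromosome 5, 75152292 to 75198215, plus strand) was listed at 0.0593 FPKM in WT, 0.133 in Pcgf1-/- and 0.146 in rescued cells, on about 8, 19 and 20 fragments. Pdgfra, a receptor for platelet-derived growth factors and an early surface marker of primitive endoderm, followed the order of Sox7, with WT lowest and the rescued cells highest. Its log2 ratios were 0.55 for Pcgf1-/- and 0.62 for Pcgf1-/-+Pcgf1 against WT, and the counting intervals as ratios were 0.937 to 5.92, which included 1, and 1.02 to 6.32, which did not. Pdgfra is also a fibroblast gene, and the part of feeder RNA in its values was not tested.

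Cubn, the vitamin B12 and albumin uptake receptor of visceral endoderm (ENSMUSG00000026726, chromosome 2, 13276338 to 13491813, minus strand), was listed at 0.0519 FPKM in WT, 0.0133 in Pcgf1-/- and 0.134 in rescued cells. These values rest on about 11, 3 and 30 fragments. The log2 ratio was -0.42 for Pcgf1-/- against WT, 1.04 for Pcgf1-/-+Pcgf1 against Pcgf1-/- and 0.62 for Pcgf1-/-+Pcgf1 against WT. Without the pseudocount the Pcgf1-/- level was 0.256 times that of WT, with a counting interval of 0.0461 to 0.974. Without the pseudocount the rescued level was 10.1 times that of Pcgf1-/- cells, with a counting interval of 3.18 to 52.3. The form listed differed as well: an intron of 591 bases (13428018 to 13428608) was retained in 100% of the signal in WT, in 71.4% in Pcgf1-/- and in 0% in Pcgf1-/-+Pcgf1 cells. The first exons of Cubn summed to 0 FPKM in WT, 0.0038 in Pcgf1-/- and 0.134 in rescued cells, so a form running from the first exon made up the whole value only in the rescued cells. By first exons alone the log2 ratio for Pcgf1-/- against WT was 0.05, so the lower Pcgf1-/- value rested on the last exons. The fragments and intervals of Cubn were taken over 11262 bases in every sample and do not allow for these different forms. As with Dab2, the Pcgf1-/- sample was lowest for Cubn and for the sum of the feeder fibroblast list, whose part was not tested.

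The members were then set beside all genes. For Pcgf1-/- against WT, 2 of the 7 members above 0 in either sample were higher (Gata6 and Sox7) and 0 were lower, while 13.5% of all such genes passed the limit, 4.07% higher and 9.41% lower. Low genes passed more often: among genes under 1 FPKM in both samples the share was 23.9%, with 6.67% higher and 17.2% lower. The counting intervals of the Pcgf1-/- to WT ratios without the pseudocount lay above 1 for Gata4, Gata6 and Sox7 and below 1 for Dab2 and Cubn. They included 1 for Sox17 and for the joined Pdgfra entry. These intervals cover counting error only and were made for the members alone, so no share over all genes can be set beside them. The median log2 ratio was 0.26 over the 7 members and -0.12 over all genes. Among genes above 0 in both samples, 2 of 6 members and 10.2% of all genes passed, and the medians were 0.50 and -0.10. In the rescued against the Pcgf1-/- cells, 1 of 7 members was higher (Cubn) and 2 were lower (Gata6, and Sox17 only through its listed 0), beside 11.8% higher and 4.11% lower, 15.9% together, among all genes. Under 1 FPKM these shares were 22.2%, 5.3% and 27.5%. The median was 0.15 over the members and 0.05 over all genes. Above 0 in both samples, 1 of 5 members was higher and 1 lower, beside 12.2% of all genes, and the medians were 0.54 and 0.02. In the rescued against the WT cells, 1 of 8 members was higher (Sox7) and 0 were lower, beside 7.31% higher and 4.32% lower, 11.6% together, with 15.3%, 8.14% and 23.4% under 1 FPKM, and the medians were 0.13 and -0.07. Above 0 in both samples, 1 of 5 members and 8.09% of all genes passed, and the medians were 0.62 and -0.08. Among the members above 0 in all samples, Gata6 alone was past the limit both upward in the first and downward in the second comparison. The 3 comparisons share libraries pairwise, so their values are not independent of each other.

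**Figure D3:**
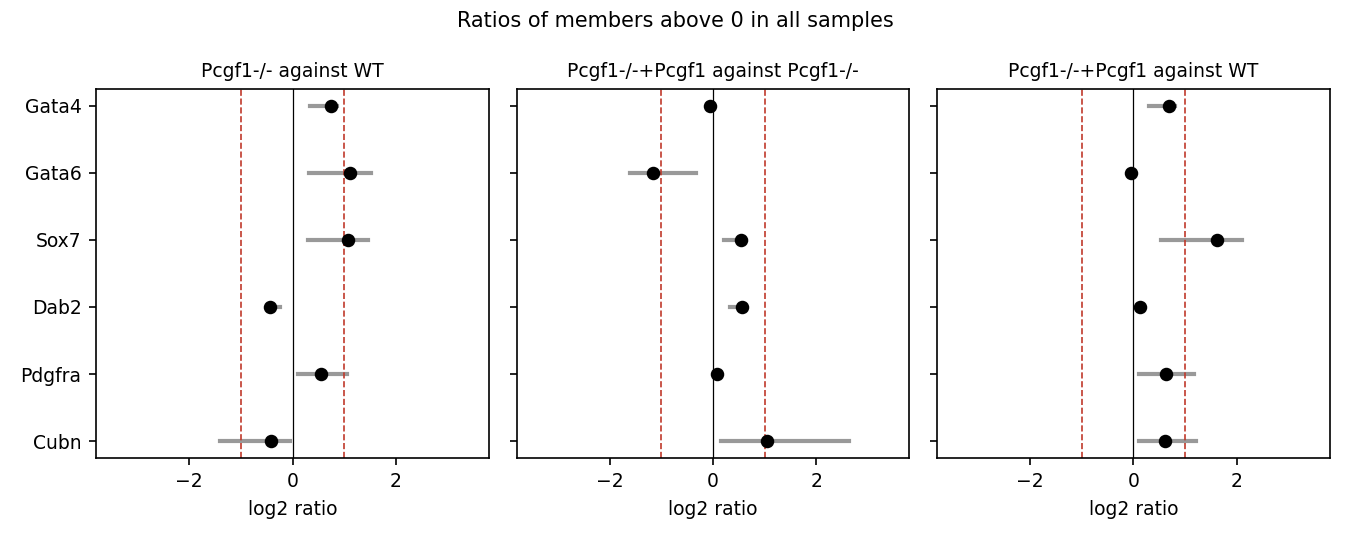
Log2 ratio (FPKM plus 0.1) of the members above 0 in all samples, with 1 panel per comparison; black points are the values, grey bars the range over pseudocounts of 0.01 to 1 FPKM, and dashed lines the 2-fold limits. Gata6 lay past the limit upward in Pcgf1-/- against WT and downward in Pcgf1-/-+Pcgf1 against Pcgf1-/-, and with a pseudocount of 1 FPKM it was inside the limit in both.

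Genes whose 3 levels followed most closely those of the 3 highest members were found by the distance between log2 values centred on each gene's mean, over 9739 other genes and only 3 samples. Nearest to Dab2 were Speg (3.31, 2.41 and 3.61 FPKM in WT, Pcgf1-/- and Pcgf1-/-+Pcgf1 cells), Shf and Rundc3b. Nearest to Gata4 were Abcb1a (3.33, 5.75 and 5.52 FPKM), Acp1 and Cpm, and nearest to Sox7 were Dnah1 (0.327, 0.833 and 1.30 FPKM), Kcns1 and Gm21092. Many genes came close: 143 lay within a distance of 0.1 of Dab2, 21 of Gata4 and 6 of Sox7.

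The wider primitive endoderm programme was read from 69 further genes in 7 lists, of which 63 were measured and 52 were above 0 in a sample. For Pcgf1-/- against WT, 7 were more than 2-fold higher and 4 lower, and the median log2 ratio over the 52 was 0.08. Leaving out genes listed at 0 in either sample kept the 7 and the 4. Among all genes above 0 in either sample, 4.07% were higher and 9.41% lower, and these shares stand beside each list below. The total of each list, also of the markers of other lineages, counts measured genes at 0 in every sample, which the shares leave out. Above 0 in a sample were 11 of 14 visceral endoderm genes, 9 of 11 genes of the FGF route and 4 of 7 paralogs. Downstream of the GATA factors, the parietal endoderm and basement membrane list had 2 higher and 1 lower of 13. Col4a1 and Col4a2, the paired chains of basement membrane collagen, were listed at 9.74 and 5.36 FPKM in WT, 24.0 and 11.2 in Pcgf1-/- and 7.15 and 2.95 in Pcgf1-/-+Pcgf1 cells, the same order of samples as Gata6. Other genes of this list had other orders. Sparc, a matrix protein abundant in parietal endoderm, was listed at 227, 266 and 254 FPKM, and Lamc1, a laminin chain, at 68.7, 51.2 and 51.3 FPKM. Hspg2 (51.9, 30.5 and 31.9 FPKM) and Lama1 (22.9, 13.8 and 15.4 FPKM) were lower than WT in both other samples, inside the 2-fold limit. Plat, tissue plasminogen activator, was lower in Pcgf1-/- cells (0.654, 0.214 and 0.508 FPKM). The median log2 ratio of the list for Pcgf1-/- against WT was 0.23.

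**Figure D4:**
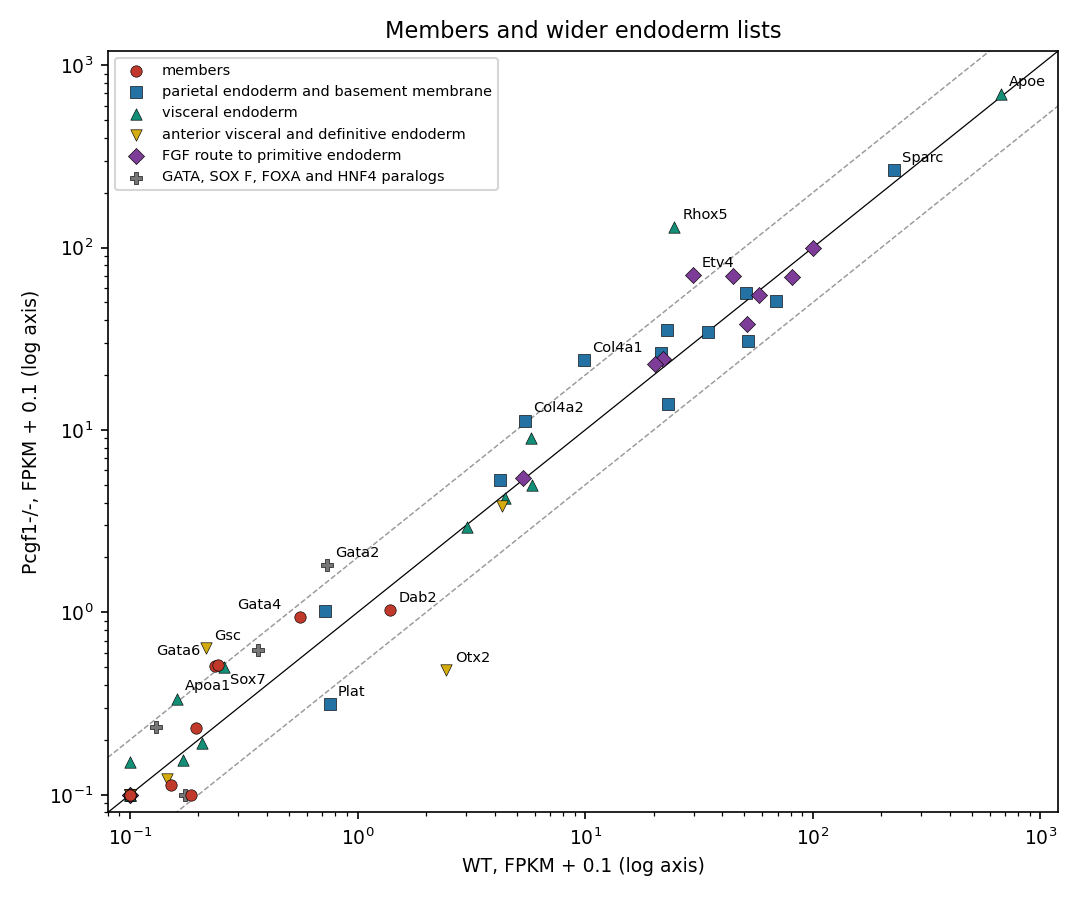
FPKM plus 0.1 in Pcgf1-/- (vertical) against WT cells (horizontal), both log axes, for members under their own name and 5 of the wider endoderm lists; the solid line marks equal levels and the dashed lines 2-fold differences. Col4a1, Col4a2, Rhox5, Etv4, Gata2, Gsc and Apoa1 lay above the upper dashed line and Otx2 and Plat below the lower one, and Gata6 and Sox7 lay just above the upper line among the lowest genes.

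The visceral endoderm list had 2 higher and 0 lower of 14. Rhox5, a homeobox gene of the X chromosome, stood at 24.4 FPKM in WT, 129 in Pcgf1-/- and 414 in rescued cells, and Apoa1, an apolipoprotein, at 0.0611, 0.237 and 0.0592 FPKM. The secreted proteins Afp, Ttr and Apoa4, by which mature visceral endoderm is usually known, were listed at 0 in every sample. Amn, the membrane anchor of cubilin, was far above Cubn itself at 5.75, 4.86 and 6.39 FPKM. Of the anterior visceral and definitive endoderm genes, 5 of 9 were at 0 throughout, among them Cer1, Mixl1 and Cxcr4, Gsc was higher in Pcgf1-/- than in WT cells (0.116, 0.537 and 0.755 FPKM) and Otx2, a factor that is also high in epiblast, was lower (2.35, 0.382 and 1.66 FPKM).

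Upstream, the FGF route that turns on Gata6 had 1 gene higher and 0 lower of 11 for Pcgf1-/- against WT. The ligand Fgf4 was listed at 80.5, 69.2 and 75.7 FPKM. Etv4, a transcriptional target of this pathway, was listed at 29.7 FPKM in WT, 70.7 in Pcgf1-/- and 25.4 in rescued cells, and the feedback phosphatase Dusp6 at 44.5, 69.5 and 24.4 FPKM, while the related target Etv5 was listed at 100.5, 98.9 and 115.9 FPKM. Between the rescued and the Pcgf1-/- cells, Etv4, Dusp6 and the receptor Fgfr1 (21.8, 24.3 and 11.8 FPKM) were the 3 lower genes of this list. Nanog, which opposes Gata6 in the embryo, was listed at 68.2 FPKM in WT, 46.3 in Pcgf1-/- and 123.0 in rescued cells, lowest where Gata6 was highest. The ES cell list did not move together. Pou5f1, Nanog and Fgf4 were lower in Pcgf1-/- than in WT cells. The other measured genes of the list, among them Tdgf1 (449, 519 and 394 FPKM) and Utf1 (600, 678 and 464 FPKM), were higher. The median log2 ratio of the list was 0.15.

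Partners and relatives of the members gave the remaining calls. In the list of endocytic adaptors and receptors, 0 of 8 were higher and Lrp1, a megalin relative also made by fibroblasts, was lower (5.04, 2.27 and 2.11 FPKM). Among paralogs of the GATA, SOX F, FOXA and HNF4 factors, 1 of 7 was higher: Gata2, a factor of blood and trophoblast, at 0.636, 1.72 and 1.30 FPKM. Gata1 followed Sox7 in order, with 0.266, 0.518 and 0.779 FPKM. In the PDGF list, the ligand Pdgfa was far above its receptor at 11.2, 16.7 and 13.5 FPKM, and Pdgfrb, a fibroblast gene, was lower in Pcgf1-/- cells (0.309, 0.0913 and 0.151 FPKM). Over all 7 lists, 2 genes were higher and 7 lower for Pcgf1-/-+Pcgf1 against Pcgf1-/-, beside 11.8% higher and 4.11% lower among all genes. For Pcgf1-/-+Pcgf1 against WT, 3 were higher and 1 lower, beside 7.31% and 4.32% among all genes. Without genes listed at 0 in either sample, the lists had 2 higher and 6 lower in the former comparison and 3 higher and 1 lower in the latter.

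Markers of other lineages were read beside these lists, and beside the 4.07% higher and 9.41% lower among all genes in Pcgf1-/- against WT. Of 5 measured trophoblast genes, 2 were higher and 0 lower in Pcgf1-/- against WT cells: Elf5 (0.153, 1.17 and 0.967 FPKM) and Tfap2c (9.10, 19.4 and 16.6 FPKM). Of 6 primitive streak and definitive endoderm genes, 1 was higher, Gsc, 0 were lower and 4 were at 0 throughout. Of the 7 ES cell genes 0 changed by more than 2-fold in Pcgf1-/- against WT cells. Their part in the levels of the endoderm genes was not tested. Genes overlapping Gata6, Sox17, Dab2, Pdgfra, Hnf4a or Cubn on the opposite strand were listed at 0 in all samples, and the library kit does not mark strand, so reads from such a partner could not have been told from those of the member.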

How the data were processed

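RNA-seq libraries from 1 WT, 1 Pcgf1KO and 1 Pcgf1KO+Pcgf1_flag ES cell culture were compared. The files the authors deposited, 1 per sample, give the FPKM of each transcript event (first exons, last exons, skipped exons, retained introns) on mm10. The submitters' processing notes name TopHat2 2.0.12, Cufflinks 2.2.1 and HTSeq 0.6.0, and the program that made the event lists is not given in the sources used here. No counts were used, so no count-based test was made, although the methods name one.

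For each gene name, FPKM values were summed over first-exon rows and over last-exon rows and the larger sum was kept. Rows without a gene name or with joined names were left out, except the joined Pdgfra row. A pseudocount of 0.1 FPKM was added before ratios, and changes over 2-fold were counted. Exons and gene positions came from GENCODE vM21, which annotates GRCm38. Promoters were RefSeq windows on GRCm38.p6, found for 5 of the 9 members. Ratio intervals are exact (conditional binomial) at 95%, from estimated fragments.

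The members, the lists and the tests were chosen with earlier results of these data known. The genes named were all members, and from each list genes among the 4 highest or among up to 4 with the largest Pcgf1KO to WT ratio past 2-fold. Not all genes that met this rule are named. Fgfr1, Gata1 and Dusp6 in the comparison of rescued with knockout cells, Cer1, Mixl1, Cxcr4, Afp, Ttr, Apoa4, Postn and Fap were named after their values were seen. The same holds for Hspg2, Lama1, Tdgf1, Utf1, Dcn and Loxl1. Other settings tried, 1 of them added after the first values, are described in the closing section. On simulated data the counting of changes found 200 of 200 planted genes. The planted changes were far past the 2-fold limit, in genes with WT levels above those of every member. The simulation thus checked the arithmetic only, and not how well changes of low genes are found. Python 3.11.15, numpy 2.4.6, pandas 2.3.3, scipy 1.17.1 and matplotlib 3.10.9 were used.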

Additional observations from a re-analysis of the deposited data

How the results depend on the processing

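The counts of members past 2-fold depend on the pseudocount and on the minimum level. For Pcgf1-/- against WT the 2 members, both higher, became 4 with a pseudocount of 0.01 FPKM, 2 higher and 2 lower (Cubn, and Foxa2 through a listed 0), 0 with a pseudocount of 1 FPKM and 0 among genes of at least 1 FPKM. In the rescued against the Pcgf1-/- cells the 3 members became 4 by first exons only, with Dab2 added, 0 with a pseudocount of 1 FPKM and 0 at the minimum of 1 FPKM. In the rescued against the WT cells the 1 member became 5 with 0.01 FPKM, 0 with 1 FPKM, 2 by first exons only and 0 at the minimum of 1 FPKM. The wider lists moved likewise. For Pcgf1-/- against WT their 11 genes became 4 with a pseudocount of 1 FPKM and 7 at the minimum. In the rescued against the Pcgf1-/- cells their 9 became 5 with a pseudocount of 1 FPKM. In the rescued against the WT cells their 4 became 9 with 0.01 FPKM, 1 with 1 FPKM and 2 at the minimum. A larger pseudocount shrinks the ratios of low genes by construction, and the minimum leaves only Dab2 among the members.

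Scaling the samples by the median of ratios moved the median log2 ratio of genes above 1 FPKM from -0.08 to 0.00 for Pcgf1-/- against WT and left all 3 member counts at 2, 3 and 1. No single-member ratio past the limit changed its direction under the alternatives run. Inside the limit, the log2 ratio of Cubn for Pcgf1-/- against WT went from -0.42 to 0.05 by first exons only. That of Gata6 for the rescued against the WT cells went from -0.04 to 0.02 with the median-of-ratios scaling. Leaving out genes listed at 0, an alternative chosen after seeing the data, took Sox17 out of the second comparison and left 2 members. No paired analysis was possible because each group had 1 library, and for the same reason no replicate was left out.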
